A study of Rattus norvegicus with 8 samples.

Results

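The genes described here had exactly 2 polyadenylation sites in the data, and both of these sites were well read. A gene symbol was included when it had 2 rows in the files, was not a LOC placeholder symbol, and had a mean normalized count of at least 10 at each site over the 8 libraries. The rule was met by 381 genes with 762 sites, out of 14265 named gene symbols and 98356 sites in all. Of the named symbols, 2944 had exactly 2 sites, and 2563 of these were left out because at least 1 site had a mean under 10. The members were therefore selected on their measured levels, and those levels are given as a description only. Just inside the limit, the lower site of Armcx2, Wdr46 and Rhbdl1 had a mean of 10.04, 10.04 and 10.05. Just outside, Sh2d5, Arl6ip4 and Pelp1 had a mean of 9.98, 9.98 and 9.95.

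The assay, WTTS-Seq (sequencing of whole transcriptome termini), is made to start its reads at the poly(A) tail. The position of a read is therefore taken as the place where the transcript was cleaved and tailed. Sequences around the sites were not analysed, so reads from A-rich stretches within a transcript could not be told apart from true ends. The libraries came from the micro-dissected hypothalamus of adult male Long-Evans rats, an outbred stock without an engineered allele. Air controls (replicates 1, 2, 3 and 4, here A1 to A4) breathed air in the vapor chamber, and cannabis rats (replicates 1, 2, 3 and 5, here C1, C2, C3 and C5) breathed vaporized cannabis for 10 min. All were free feeding, and food was removed for the 1 hr between exposure and tissue collection.

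Alternative polyadenylation (APA) gives 1 gene several mRNA ends. When the cleavage and polyadenylation machinery uses a site close to the stop codon, the mRNA has a short 3′ untranslated region, and when it uses a distal site the region is long and can carry more binding sites for microRNAs and RNA-binding proteins. A site inside an intron can instead give a truncated coding sequence. Neurons are known for long 3′ untranslated regions. A gene with only 2 sites is the simplest case, because a single number, the share of the gene's reads at the less abundant site, states how the transcript ends are divided. The less abundant site was fixed for each gene by the mean over the 8 libraries, so that its share can pass 50% in a single library.

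The libraries had from 1159811 (A4) to 3706778 (C2) reads on sites. C1, with 1919709, was close to A2, with 1941129. A4 and C1 stood apart: they had no read at 26.1% and 17.0% of all sites, against 3.32% to 10.3% in the other libraries, and their deviations from the group means went together across sites (r = 0.47, over sites that share the library depth). A4 also gave the highest share of the 8 libraries in 80 members and the lowest in 90. Values without A4 and C1 are given beside the results that move with them. The tissue was bulk, so fewer cells of a type and less RNA per cell cannot be told apart. The summed level of each of 8 marker lists (neurons, oligodendrocytes, astrocytes, microglia, vessels, tanycytes, choroid plexus and pituitary) overlapped between the groups. Pituitary markers ranged from 403 to 1105 normalized counts in the air controls and from 411 to 940 in the cannabis rats, and choroid plexus markers from 27.5 to 40.7 and from 24.8 to 54.5.

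The 2 sites of a gene were rarely equal. Over the 381 genes the mean share at the less abundant site had a median of 27.3%, with the 25th percentile at 14.4% and the 75th at 39.9%. It was under 10% in 55 genes, from 10 to 25% in 120, from 25 to 40% in 114 and at least 40% in 92. The extremes were 0.0422% for mt-Rnr1 and 53.3% for Fam57b, and the mean of the shares passed 50% in 6 genes, since the order of the sites was set by mean levels. The rule sets a floor for this distribution, since a lower site of at least 10 can be a small share only of a gene with many reads. Among the 43 genes with both sites at a mean of at least 50 the median share was 40.1%.

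**Figure D1:**
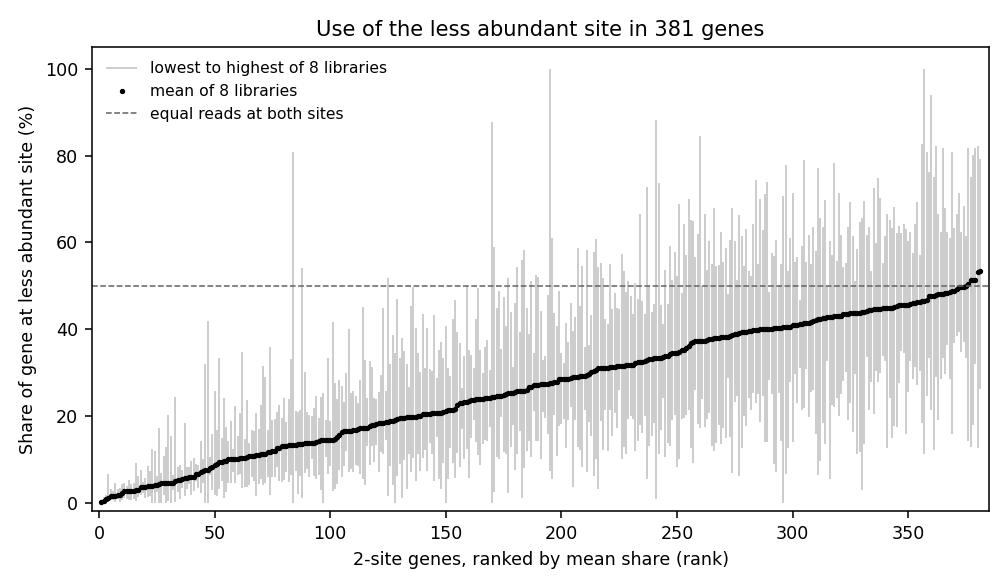
Share of the gene at its less abundant site (%, vertical axis) for the 381 genes ranked by their mean (horizontal axis). Points are the mean of 8 libraries, grey lines run from the lowest to the highest library, and the dashed line marks equal reads at both sites. Means run from near 0 to 53.3% and the lines of many genes cross the dashed one.

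The genes with the lowest shares were among the most abundant transcripts, and nearly all of their reads fell on a single end. mt-Rnr1, the mitochondrial 12S ribosomal RNA, had a total of 89139 normalized counts, and its lower site held from 0.00146% (C1) to 0.126% (C3) of them. Resp18, a protein of the neuroendocrine secretory pathway, had a mean share of 0.466% and reached 1.32% in A4. Rpl21, a ribosomal protein of the large subunit whose near-identical copies in the genome can share reads, stayed between 0.571% and 1.68%. These genes used 1 end in every library.

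Atp5i, a subunit of the mitochondrial ATP synthase (now Atp5me), had a mean share of 1.13%, but a single library carried it. Its share was 0.249%, 0.627%, 0.277% and 0.623% in A1 to A4 and 0.201%, 0.129%, 6.67% and 0.264% in C1, C2, C3 and C5. C3 had 108 of its 1620 reads at the lower site. Cox7a2l, which takes part in the assembly of respiratory supercomplexes, had a mean share of 1.45% and ranged from 0.64% to 3.16%. Prkaa1, a catalytic subunit of the energy sensor AMPK, had a mean share of 1.6% of 1372 normalized counts, from 0.0684% in C1 to 4.52% in C2. Its more abundant site lies within an intron by the study's site annotation, as do those of Isx and Slbp. The share of Prkaa1 was under 0.2% in A4 and C1 and at least 0.76% in the other libraries.

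At the other end of the range were genes whose sites traded places between rats. Fam57b (now Tlcd3b, a lipid enzyme related to ceramide synthases) had shares of 28.1%, 63.6%, 79.2% and 26.3% in A1 to A4 and 40.7%, 64.7%, 53.6% and 70.4% in C1, C2, C3 and C5. Fam3a, Rsad1, Ccdc124 and Raet1d had mean shares of 53.1%, 51.4%, 51.3% and 51.3%. Raet1d, a ligand of the natural killer cell receptor NKG2D, ran from 12.9% in C1 to 75% in A4 and C5. Both groups spanned wide ranges in these genes, although the air controls of Raet1d other than A4 (12 reads) lay between 46.3% and 50%. The reads behind a share were few, from 7 in A4 for Rsad1 to 424 in C2 for Ccdc124.

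Which of the sites was the larger one held in all 8 libraries for 220 of the 381 genes (57.7%). The order turned in 1 library for 58 genes, in 2 libraries for 43 and in at least 3 for 60. The highest number was 5 libraries, which a gene can reach because the order was set by mean levels. Among the 4813 symbols with 3 or more sites in which the main site and the sum of the others both had a mean of at least 10, the sum of the others held a median of 44.6%. The 2-site genes leaned more to a single end than these symbols, a difference that was not tested and that the number of sites itself favours.

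The spread between rats was larger than read counting gives. The SD of the share within a group had a median of 9.94 percentage points, and the SD that binomial counting of the reads alone gives had a median of 4.83 points. The observed variance exceeded the counting variance in 363 of the 381 genes, with a median ratio of 3.84 (25th to 75th percentile 2.27 to 7.24). In the symbols with 3 or more sites the median ratio was 3.92, so that the spread of the 2-site genes was of the same size. Reads made by PCR without molecular identifiers are not independent molecules, and binomial values and the 95% Wilson intervals below cover counting error only.

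**Figure D2:**
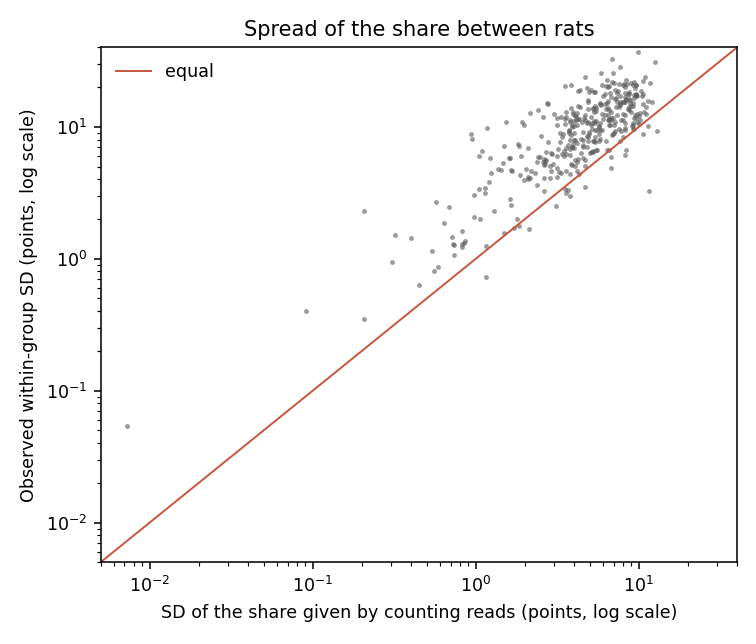
Within-group SD of the share at the less abundant site (percentage points, vertical log axis) against the SD expected from counting reads (horizontal log axis), 1 point per gene. The line marks equality. Of the 381 genes, 363 lie above it.

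Genes that were read deeply at both sites showed this plainly, because counting error is small there. Gnai2, an inhibitory G protein alpha subunit that couples receptors such as the cannabinoid receptors to adenylyl cyclase, had 845.7 and 1039 normalized counts at its sites, both exonic in the site annotation. Its shares were 47.1%, 40.1%, 43.2% and 52.2% in A1 to A4 and 60%, 30.2%, 37.8% and 46.5% in C1, C2, C3 and C5. With at least 906 reads in each library, the observed variance was 68.8 times that of counting. The cannabis rats held both the highest and the lowest share, and the group means of 45.6% ± 5.23 (SD, n = 4) and 43.6% ± 12.8 differed by less than this spread.

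Cartpt, which encodes the anorexigenic neuropeptide CART, was divided almost evenly between an exonic site and a distal one. The distal site was the lower one on average, with 49.6%, 51%, 42.9% and 39.6% in A1 to A4 and 41.9%, 29.6%, 48% and 47.6% in C1, C2, C3 and C5. Its total was 1096 ± 161 normalized counts in the air controls and 1441 ± 368 in the cannabis rats (SD, n = 4). C2 had the lowest share, and its exonic site, at 1029 normalized counts, was the highest of all libraries. Neither the division nor the total passed the threshold in limma, and the exact permutation test of the share gave P = 0.486.

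The other neuropeptide member, Nts (neurotensin), was read far less, with 31 to 142 reads a library. Its shares were 14.8%, 31.8%, 25.2% and 12.9% in the air controls and 25.6%, 21.8%, 43.9% and 26.7% in the cannabis rats, and the groups overlapped. Cxcl14, a chemokine made by neurons and glia, had 42.3% ± 1.21 in the air controls and 39.9% ± 7.76 in the cannabis rats. Its 4 air controls lay between 41.2% and 44.1%, while the cannabis rats lay between 31% and 46.8%.

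Among abundant genes, Actb separated the groups. Actb, cytoplasmic beta actin, ended mostly at a site that the annotation places just downstream of the known transcript end, and its lower site is the annotated distal one. The lower site held 13.6%, 10.6%, 12.3% and 12.7% in A1 to A4 and 13.7%, 19.1%, 16.1% and 17.5% in C1, C2, C3 and C5. The lowest cannabis rat lay just above the highest air control. The means were 12.3% ± 1.23 and 16.6% ± 2.31 (SD, n = 4), with a two-sided exact permutation p of 0.0286, the smallest value that 4 against 4 libraries allow. The usage log2 change was 0.50 ± 0.29 (SE) in limma, and its P (P = 0.106, beside that of the exact test) does not pass the threshold. Neither site alone passed it, with a log2 change of -0.21 at the higher site and 0.29 at the lower.

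**Figure D3:**
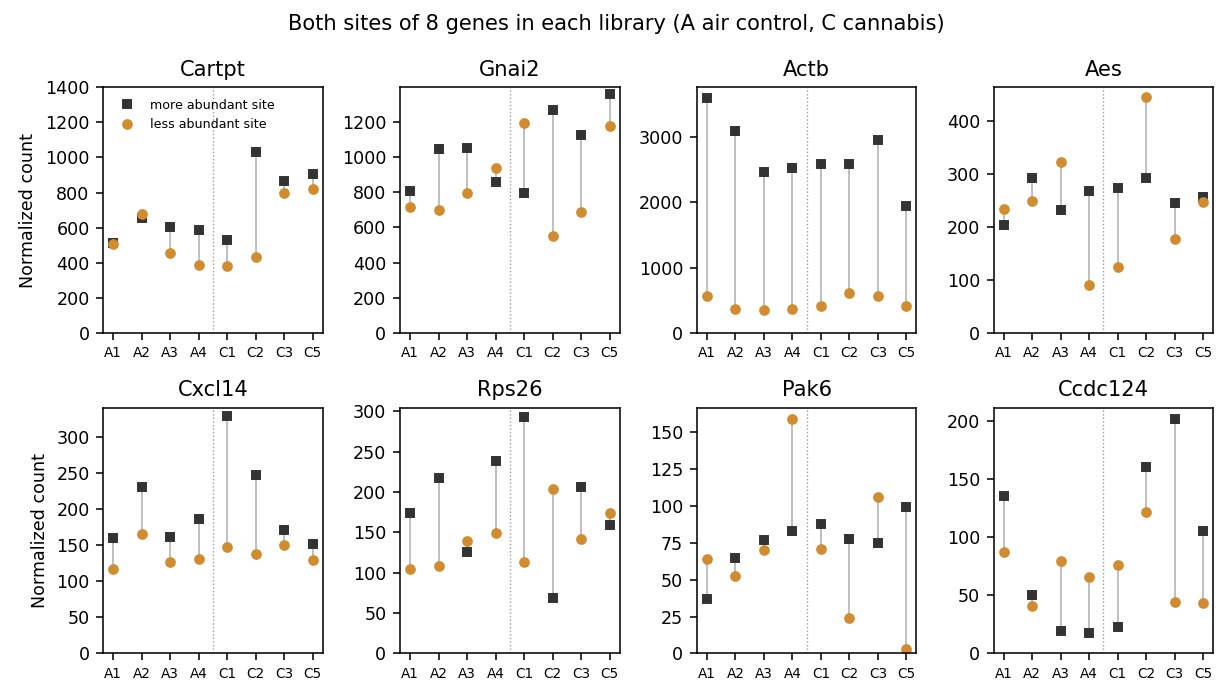
Normalized counts (vertical axes, each from 0) at the more abundant site (squares) and the less abundant site (circles) of 8 of the genes named here, in each library (A air control, C cannabis, replicate numbers from the labels). Vertical lines join both sites of 1 library. In Cartpt (in A2 only), Gnai2, Aes, Rps26, Pak6 and Ccdc124 the order of the sites turns between libraries, whereas in Actb the sites stay far apart.

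The widest spreads among genes with both sites at a mean of at least 50 were found in Ccdc124, Pak6, Limk2, Axin2 and Rps26. Ccdc124, a coiled-coil protein that binds ribosomes, had 39.1%, 44.7%, 80.3% and 78.6% in the air controls and 77.2%, 43.2%, 18% and 29% in the cannabis rats. Its lower site ranged from 40.7 to 122 normalized counts and its higher site from 17.9 to 202. The share was above 77% in A3, A4 and C1 and below 45% in the other libraries.

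Pak6, a kinase of the p21-activated family expressed in brain, had 63.3%, 44.9%, 47.7% and 65.6% in the air controls and 44.5%, 23.5%, 58.7% and 3.01% in the cannabis rats. C5 had 4 reads at the lower site against 129 at the higher one. Limk2, a kinase that phosphorylates cofilin and so acts on actin, was also lowest in C5, with 9.66% against 30% to 65.6% in the other libraries. Axin2, a scaffold of the Wnt pathway and one of its targets, ran from 14.1% in A3 to 71.2% in A1. Rps26, a ribosomal protein of the small subunit whose processed copies can share reads, ran from 27.8% in C1 to 74.8% in C2.

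Aes (now Tle5), a Groucho-type corepressor that lacks the repeat domain of its relatives, had 53.3%, 46%, 58% and 25.4% in the air controls and 31.2%, 60.4%, 42% and 49.1% in the cannabis rats. A4 and C1 were the lowest in their groups. Its distal site varied between 204 and 293 normalized counts, while its exonic site ranged from 91.4 in A4 to 446 in C2. Ctbp1, a corepressor of another kind, was steady, with shares from 3.24% to 8.29%. Isx, a homeobox gene best known from the intestine, had 33.3% in C5 and 3.2% to 13.1% in the other libraries. Its intronic site had 35.3 normalized counts in C5 and 236 to 730 elsewhere, and its lower site was within the range of the other libraries there.

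A small set of lower sites was carried by few rats. In 5 genes at least 75% of the normalized counts of the lower site came from 2 libraries (a limit set after the values were seen), and A1 was among them in all 5 genes. Gas5, the host gene of small nucleolar RNAs, had 185 reads at its lower site in A1 against 44 at its higher site. In the other libraries Gas5 had 2, 0 and 0 reads (A2 to A4) and 0, 2, 6 and 2 reads (C1, C2, C3 and C5) at that site, with 17 to 103 at the higher one. The 0 reads allow a share of up to 4.35% in A3 and of up to 17.6% in A4 and in C1.

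Epn1, an endocytic adaptor of the epsin family, had 123 reads at its lower site in A1 and 100 in C3, where that site held 69.9% and 87.7% of the gene. The other libraries had 0 to 3 reads there and 10 to 65 at the higher site. The ribosomal protein pseudogene Rpl26-ps2 had 40 lower-site reads in A1 and 104 in C5, with 0 to 2 elsewhere. Sil1, a nucleotide exchange factor of the endoplasmic reticulum, had 79 in A1 and 24 in C3, with 1 to 9 elsewhere. Reep2, a protein that shapes the endoplasmic reticulum, had 80 in A1 and 32 in C5, with 0 to 14 elsewhere. In each of these genes the pair of libraries held 1 air control and 1 cannabis rat. The higher site was spread over more libraries, with no more than 42.0% in its top 2 libraries in any of the 5 genes. The rule itself depended on such libraries in part: without the library with the highest level, the lower site of 69 members had a mean under 10.

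Tubb4b, a beta tubulin, showed a related pattern within the naming rule. Its lower site held 24.3% in A1, which is 225 of 926 reads, and 0.254% to 5.23% in the other libraries. Psma6, a subunit of the proteasome core, had 12.4% in A1 and no lower-site read in C5, which allows a share there of up to 0.767%. The mean share of 3.94% for Psma6 thus rested on few libraries, of which C3 (7.86%) was the second.

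Whether exposure changed the division was asked of every symbol with at least 2 sites, with limma on log2 of the less abundant part over the most abundant site. The members' median share was 26.2% in the air controls and 26.8% in the cannabis rats. The difference of the group means, cannabis minus air, had a median of -0.06 percentage points over the 381 genes. It was under 5 points in size in 214 genes and over 10 points in 69. It was positive in 189 genes and negative in 192. The usage log2 change had a median of -0.02 in the members and of -0.05 over all 10977 symbols, with a median SE of 0.58 in the members.

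With P under 0.01, the study's threshold, 2 of the 381 members differed (0.525%), 1 in each direction, beside 0.292% of the 10977 symbols tested. With P under 0.05 they were 14 (3.67%), beside 2.85%. The groups did not overlap in 5 members (1.31%), beside 1.92% of all symbols. These shares are near their backgrounds. Both sites had a mean of at least 10 within each group by itself in 316 members. Of these 316 none had a usage P under 0.01 in limma (8 had P under 0.05), and in edgeR 1 had, Ccdc107. No member passed an adjusted P under 0.1 in limma or in edgeR (14 at an unadjusted P under 0.05 in limma), and the smallest adjusted P of a member in limma was 0.999. The count of 2 became 1 without A1 or without C5, 4 without A3 and 5 without C1, and it was 2 without A4 and C1 together. Over all symbols the count of 32 became 13 without A1, 26 without C5, 56 without A3 and 53 without C1. It was 34 over all symbols without A4 and C1 together.

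**Figure D4:**
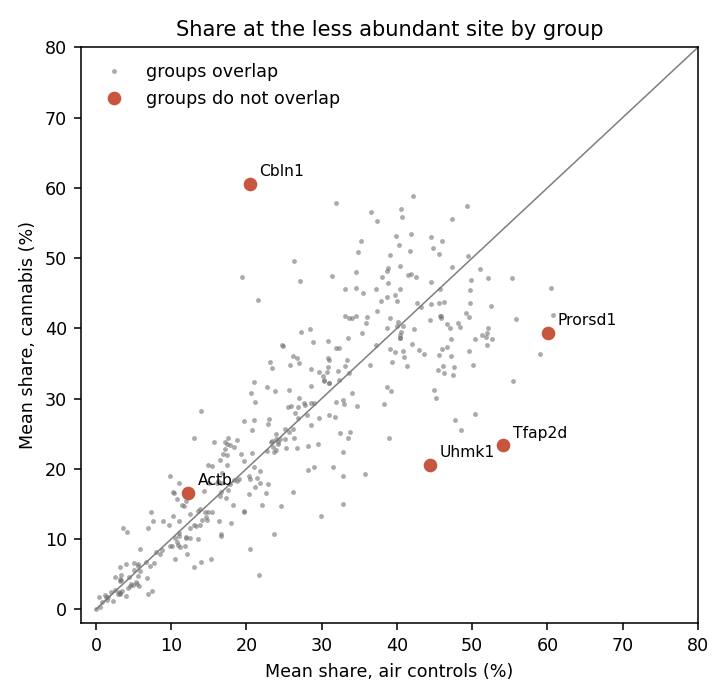
Mean share at the less abundant site in the air controls (horizontal axis, %) and the cannabis rats (vertical axis, %), 1 point per gene, with the line of equality. The 5 named genes are those whose groups did not overlap: Cbln1 and Actb lie above the line, and Tfap2d, Uhmk1 and Prorsd1 below it.

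Cbln1 and Tfap2d were the members past P under 0.01. Cbln1 encodes cerebellin 1, a secreted organizer of synapses that binds neurexins and the delta glutamate receptors. Its share was 20.8%, 6.67%, 40% and 14.3% in A1 to A4 and 57.1%, 78%, 52.9% and 54.2% in C1, C2, C3 and C5. Every cannabis rat lay above every air control, and the order of the sites was turned in all 4 of them. The lower site had a mean of 6.28 in the air controls, so Cbln1 met the limit of 10 only through the cannabis rats, where it was high. Its selection therefore favoured a difference, and the test values are given as a description. The log2 change of the ratio was 2.57 ± 0.65 (SE), with P = 0.00131 and an adjusted P of 0.999 in limma and P = 0.0286 for the share in the two-sided exact permutation test.

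The reads behind Cbln1 were few. They ranged from 7 in A4 to 59 in C2 and C5, and the 95% Wilson interval of the share ran from 2.57 to 51.3% in A4 and from 65.9 to 86.6% in C2. The total did not differ beyond its spread, at 29.6 ± 10.5 normalized counts in the air controls and 29.7 ± 14.8 in the cannabis rats (SD, n = 4). The lower site was at 6.28 ± 5.34 and 18.5 ± 10.8, and the higher site at 23.3 ± 9.38 and 11.2 ± 6.39. The limma P of Cbln1 was below the 0.01 threshold in the 14 limma alternatives run, and the log2 change was 2.60 without A4 and C1.

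Tfap2d, a transcription factor of the AP-2 family with restricted expression in brain, went the other way. Its share was 68.1%, 42.9%, 50% and 55.6% in the air controls and 33.3%, 36.8%, 6.9% and 16.3% in the cannabis rats, without overlap. Its lower site had a mean of 16.9 normalized counts in the air controls and 5.09 in the cannabis rats. It thus met the limit only through the air controls, and its test values are a description as well. The log2 change was -1.97 ± 0.65 (SE), with P = 0.0088 and an adjusted P of 0.999 in limma and P = 0.0286 in the exact permutation test. The limma P was under the threshold in 6 of 14 limma alternatives. It was above the threshold without A1 (log2 change -1.70), A2 (-2.18), A3 (-2.05), A4 (-1.95), C3 (-1.48) or C5 (-1.83), and also without the trend term (-1.97) and with the replicate number as a block (-1.81). Reads per library were 9 to 72. At 9 reads in C1, the Wilson interval ran from 12.1 to 64.6%.

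**Figure D5:**
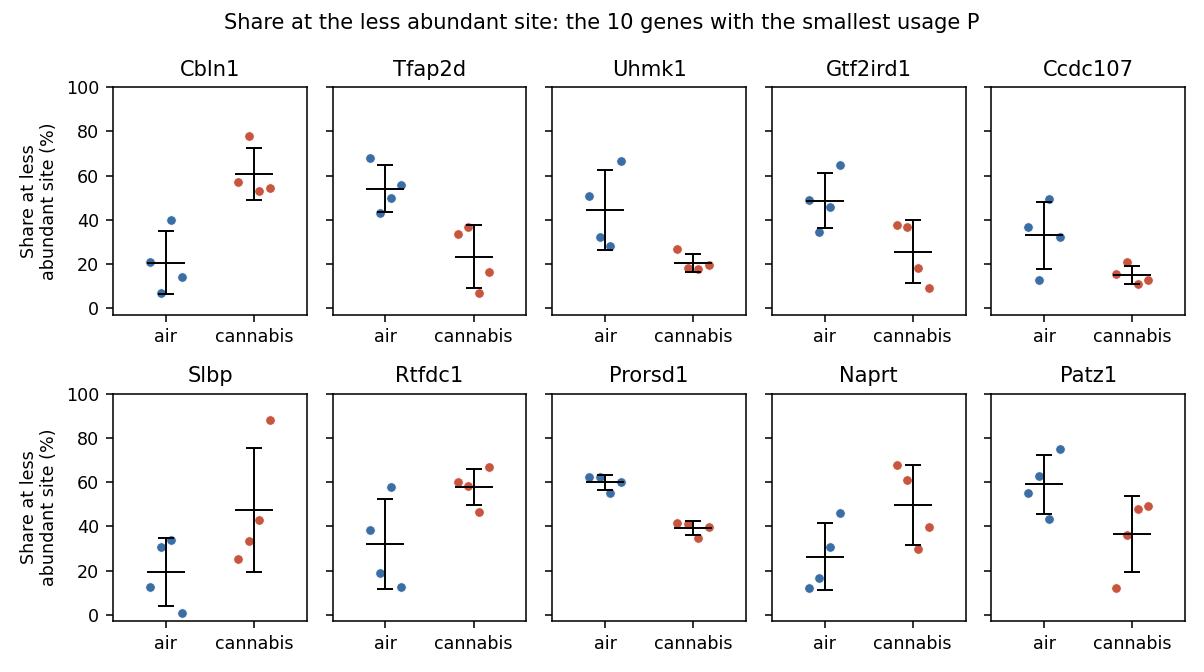
Share at the less abundant site (%, vertical axes) in each library (points) of the 10 members with the smallest usage P, with the group mean and SD (bars, 4 libraries a group). Cbln1, Tfap2d, Uhmk1 and Prorsd1 show no overlap between air and cannabis.

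Of the next 8 genes by usage P, none passed 0.01, and their values are given as they stand. Uhmk1, a kinase with an RNA recognition motif, had 50.9%, 32%, 27.9% and 66.7% in the air controls and 26.5%, 18.3%, 17.9% and 19.6% in the cannabis rats. The cannabis rats were close together, and all lay below the lowest air control, which was A3. Its usage log2 change was -1.54, and -1.11 without A4 and -1.27 without A4 and C1. Prorsd1, a prolyl-tRNA synthetase domain protein, had 55.3% to 62.5% in the air controls and 34.8% to 41.7% in the cannabis rats. Its replicates lay closer than read counting gives, with an observed variance of 0.0815 times that of counting, on 5 to 53 reads a library. The two-sided exact permutation p of the share was 0.0286 for each of these as well, and all 10 genes were chosen by their small P. The higher site of Prorsd1 had a mean of 9.08 in the air controls and 19.2 in the cannabis rats. Prorsd1 thus met the limit of 10 only through the cannabis rats, and its test values are a description as well.

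Gtf2ird1, a transcription factor gene of the Williams syndrome region, had 48.6% ± 12.5 in the air controls and 25.6% ± 14.1 in the cannabis rats. Its groups overlapped by A2 (34.5%). Ccdc107 had 36.9%, 12.8%, 49.5% and 32.3% against 15.4%, 20.7%, 10.9% and 12.9%, and A2 was again the control among the cannabis values. Its log2 change of -1.35 with all libraries became -1.86 without A2 and -0.98 without A3. The P was under 0.01 without A2 and in edgeR on recovered reads, and above it in the other 13 alternatives. Its lower site is exonic in the site annotation.

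Slbp, which binds the stem-loop of histone mRNAs, had a log2 change of 2.66 ± 1.09 (SE), which rested on single libraries. Its shares were 12.3%, 30.4%, 33.7% and 0.901% in the air controls and 25%, 33.3%, 42.9% and 88.2% in the cannabis rats. A4 had 218 normalized counts at the higher, intronic site, where the other air controls had 19.2 to 46.8, and C5 had 3.07. The log2 change was 1.51 without A4, 1.79 without C5 and 1.97 without A4 and C1. The lower site had a mean of 8.94 in the air controls and 14.2 in the cannabis rats. Slbp thus met the limit of 10 only through the cannabis rats, and its test values are a description as well. Rtfdc1, Naprt and Patz1 had group means of 31.9% and 57.9%, of 26.3% and 49.6%, and of 59% and 36.4%, in air controls and cannabis rats. The usage log2 change of Rtfdc1 was 1.54, and 1.11 without A4 and C1. Its lower site had a mean of 6.59 in the air controls and its higher site 9.51 in the cannabis rats. Each is under the limit of 10, so its values are a description too. In Patz1, a zinc finger transcription factor, the usage log2 change was -1.42, and it was -0.83 without C1 and -0.52 without A4 and C1.

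The total level of the 2-site genes was compared in the same way over all 18003 symbols. The log2 change of the total had a median of 0.08 in the members and of 0.05 over all symbols, and it was positive in 239 members and negative in 142. At P under 0.01 there was 1 member of 381 (0.262%), beside 0.278% of all symbols. This was Fem1a, a substrate receptor of cullin ubiquitin ligases. Its total was 135 ± 26.8 normalized counts in the air controls and 223 ± 35.3 in the cannabis rats (SD, n = 4), a log2 change of 0.72 ± 0.22 (SE) with P = 0.00522 and an adjusted P of 0.999 in limma and P = 0.0286 in the exact permutation test.

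The division of Fem1a had a usage log2 change of 0.07 ± 0.63 (SE). Its higher site had 86.3, 140.1, 101.4 and 133 normalized counts in A1 to A4 and 225, 164, 176 and 200.5 in C1, C2, C3 and C5, without overlap. The call was lost without A1, A3, C1 or C5 (log2 change from 0.65 to 0.67), without A4 and C1 together (0.68), without the trend term (0.72) and with the replicate number as a block (0.66). Patz1 and Slc35b2, a transporter of the sulfate donor PAPS into the Golgi, had the next smallest P and did not pass the threshold. The total of Patz1 was 33.5 ± 8.4 in the air controls and 56.6 ± 8.44 in the cannabis rats, and that of Slc35b2 was 88 ± 13.9 and 159 ± 77.4 (SD, n = 4).

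Site by site, 2 of the 762 sites had P under 0.01 (0.262%), beside 0.381% of all 98356 sites. These were the higher site of Patz1, with a log2 change of 1.36, and the higher site of Slbp, with a log2 change of -1.88. The site of Patz1 had 5.96 to 22.2 normalized counts in the air controls and 25.3 to 53.4 in the cannabis rats, without overlap, while the groups of the Slbp site overlapped. Without A4 no site of a member had P under 0.01, and without A4 and C1 there were 2, both higher in cannabis rats, so that the Slbp call was lost. Both sites were higher in cannabis rats in 130 members, both were lower in 56, and they went in opposite directions in 195.

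The members were of many kinds. Over all named gene symbols, 381 of 14265 were members. The gene lists gave 8 of 291 solute carriers, 7 of 89 genes of the oxidative phosphorylation pattern and 7 of 198 Tmem genes. They gave 4 of 63 translation factors, 3 of 36 proteasome subunits and 2 of 79 ribosomal proteins. There were also 2 of 238 zinc finger genes of the Zfp series, 2 of 52 Rab GTPases and 2 of 37 neuropeptides and hormones. Mitochondrial ribosomal proteins, a list added after the member names were known, gave 9 of 70 genes in the files. No member of these lists passed a usage or total P under 0.01, beside 0.292% and 0.278% of all symbols. Tfap2d and Cbln1 were in other lists, made from the members after their names were known. None of the 14 endocannabinoid genes, 39 glutamate and GABA receptors, 39 genes of the synaptic vesicle machinery or 16 immediate early genes in the files was a member. With 381 members among 14265 named symbols, lists of these sizes can lack a member without being unusual. Of the glutamate and GABA receptors 32 had 3 or more sites, and so had 32 of the synaptic vesicle genes.

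Within these lists the values were as follows. The oxidative phosphorylation members had mean shares from 1.13% (Atp5i) to 37.7%, and Uqcr11, a subunit of complex III, had 0.663% to 4.2%. Their usage log2 change had a median of 0.03, beside -0.05 over all symbols. The proteasome core subunits Psma4 and Psma7 had mean shares of 16.3% and 38.5%, and all 3 proteasome members had usage log2 changes below 0, none past the threshold. Atp6v0c, the membrane pore subunit of the vacuolar ATPase, had 4.12% to 6.32% in the air controls and 2.82% to 6.43% in the cannabis rats.

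Eef2, the elongation factor that moves the ribosome along, had 5.06% to 8.95% in the air controls and 4.89% to 7.66% in the cannabis rats. Eif5a and Eif1ad, also translation factors, had mean shares of 2.78% and 45.2%. Eif1ad was low in A4 (17.6%) and C1 (22.2%) and between 31.8% and 68.2% elsewhere. Mrpl21, Mrps11 and Mrpl44 of the mitochondrial ribosome had mean shares of 5.2%, 12% and 13.7%.

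Kcnk1, a leak potassium channel, had 18%, 11.6%, 13.1% and 1.48% in the air controls and 5.24%, 12.1%, 20.7% and 5.24% in the cannabis rats. A4 and C1 were the lowest of their groups, C1 level with C5. Spry2, an inhibitor of receptor tyrosine kinase signalling, showed the same libraries at its higher, exonic site. That site had 864 normalized counts in A4 and 919 in C1, and 146 to 263 in the others, so that its share was lowest in A4 (0.911%) and C1 (1.07%). Nptx1, a secreted pentraxin of excitatory synapses, had 13.2% to 20.2% in the air controls and 13.8% to 24% in the cannabis rats.

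Slc35f6, a transporter of lysosomes and mitochondria, had 30.7%, 30.9%, 30.4% and 19.4% in the air controls and 29.5%, 25.9%, 28.8% and 32.1% in the cannabis rats. Apart from A4 it lay within 25.9% and 32.1%. Zfp281, a zinc finger factor of stem cells, lay between 33.9% and 55.2%. Slc33a1, the acetyl-CoA transporter of the endoplasmic reticulum, had 10.2% ± 5.71 in the air controls and 16.7% ± 2.8 in the cannabis rats. Its groups overlapped only by A3 (15%), and its usage P was 0.12. Its lower site had 1.99 to 15.4 normalized counts in the air controls and 16.1 to 26.6 in the cannabis rats, and its total 99.3 to 108.9 and 109.3 to 159.4. Both were without overlap, each with a two-sided exact permutation p of 0.0286, and the total was not past P under 0.01 in limma. The same exact test was run on the totals and sites of many named genes, and several reached this smallest value. How often it is reached over all symbols was not counted.

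Cstf1, a subunit of the cleavage stimulation factor that selects polyadenylation sites, was itself a 2-site gene. Its shares were 23.1%, 30.4%, 25.8% and 11.4% in the air controls and 13.3%, 25.6%, 39.3% and 12% in the cannabis rats, on 35 to 121 reads. The group means were 22.7% and 22.6%. Of the 34 cleavage and polyadenylation factors in the files, 26 had 3 or more sites. Rarres2 (chemerin), made by tanycytes among other cells, had shares from 19% to 63.6% in both groups together, and Dnajb1, a heat shock co-chaperone, from 12.3% to 50%. Among vesicle traffic genes, Rab35 had a mean share of 13% and Rab33b of 47.8%, and Rab33b reached 82.4% in A4. The Tmem genes with the highest totals, Tmem179, Tmem132a and Tmem41b, had mean shares of 2.58%, 10.7% and 8.8%, and the zinc finger gene Zfp777 had 20.48%. Their groups overlapped.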

How the data were processed

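The files hold 1 table per library with a gene symbol and a signal, the normalized count, per APA site. The authors removed low-quality reads (FASTX Toolkit), cut the Ts at the read start, and aligned the rest by strand to Rnor_6.0 using TMAP. They joined neighbouring read ends into sites with at least 16 reads and took symbols from Cuffcompare. The signal the authors deposited is the reads divided by a DESeq2 size factor, unpooled. Clustering can merge near sites into 1, and the read minimum hides weak sites, so that 2 sites are a count at this depth. Whole reads were recovered from the value of 1 read (100% of values whole within 0.1 read).

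Groups and replicate numbers came from the labels. The usage ratio, gene totals and sites were fitted over all features with lmFit and eBayes (trend on) of limma 3.58.1, run in R 4.3.3, using log2 of normalized counts with a pseudocount of 1, which understates changes of low values. P-values were adjusted by Benjamini-Hochberg, and calls were made at P under 0.01 or adjusted P under 0.1. They measure the spread between libraries, 1 per rat. Shares of named genes had an exact permutation test over the 8 libraries and 95% Wilson intervals, and 3 reads were taken as the floor. edgeR 4.0.16 on recovered reads was an alternative, with the others listed in the closing section. Other steps ran in Python 3.11.15 with scipy 1.17.1. Of the 381 symbols, 379 matched GRCr8 names. Location classes are words from the study's site table, held for part of the sites only. Positions and sequences were not analysed here.

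The members and lists were chosen with earlier results of these data known. Named genes were the 10 with the smallest usage P, the 5 highest and 5 lowest mean shares, the 5 highest totals, the 5 largest SDs among genes with both sites at 50 or more, the genes next to the limit of 10, the 3 smallest total P, and up to 3 members of each list by total. Gas5, Epn1, Rpl26-ps2, Sil1 and Reep2 were named after their values were seen.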

Additional observations from a re-analysis of the deposited data

Results flagged for a closer look

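In each of the 70 named genes, the 4 shares of a group were examined for a library far from the other 3 by the gap over the range. In normally distributed values chance flags about 1 in 20 such groups, but shares are bounded and some genes were named for their spread. That rate need not hold here, and 17 of the 140 groups had such a library. Their causes were not tested.

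In the cannabis rats, C3 stood apart in mt-Rnr1 (0.126%, others up to 0.00795%), Atp5i (6.67%, others up to 0.264%) and Atp6v0c (6.43%, others up to 3.33%). C2 stood apart in Cbln1 (78%, others up to 57.1%) and Slc33a1 (20.8%, others up to 15.6%). C5 was far above the others in Isx (33.3%, others up to 5.94%), and C1 was far below them in Spry2 (1.07%, others from 7.69%).

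In the air controls, A4 stood apart in Raet1d (75% on 12 reads, others up to 50%), Resp18 (1.32%, others up to 0.364%) and Slc35f6 (19.4%, others from 30.4%), and A1 in Tubb4b (24.3%, others up to 3.97%).

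The other 6 lay in the 5 genes named for a lower site read in few rats, which were chosen for this pattern. A1 stood apart in Gas5 (80.8%, others up to 5.88%) and Sil1 (54.1%, others up to 4.65%) among the air controls. Among the cannabis rats C3 stood apart in Epn1 (87.7%, others up to 6.38%) and Sil1 (31.6%, others up to 4.79%), and C5 in Rpl26-ps2 (41.9%, others up to 3.08%) and Reep2 (32%, others up to 6.56%).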

How the results depend on the processing

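The count of 2 members past P under 0.01 in usage became 14 at P under 0.05 and 1 without trend, and lay between 1 and 5 with a library left out. For totals, the count of 1 became 7 of 381 at P under 0.05, beside 433 of all 18003 symbols, and 0 without trend. It lay between 0 and 3 with 1 library left out, and was 0 with both shallow-coverage libraries left out. These are A4 and C1, named so for their sites without a read. Leaving them out was an alternative chosen after seeing the data. For sites, the count of 2 became 21 of 762 at P under 0.05, beside 2981 of all 98356 sites. It was 1 with a pseudocount of 0.5, 1 among sites with a mean of at least 10, 0 without trend and 4 in edgeR. With 1 library left out it lay between 0 and 9, the 9 being without A3. Over all sites the count of 375 became 518 in edgeR and 617 without A3. With both sites at a mean of at least 5 or 20 there were 861 and 163 genes, and at 20 or 50 the median share was 31.3% and 40.1%. In edgeR the usage count was 3 and the total count 1, and over all symbols 62 and 52.

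With the replicate number as a block (replicate block), the counts were 2 for usage, both higher, 0 for totals and 1 for sites. Only the numbers 1, 2 and 3 occur in both groups, and the deviations of libraries with the same number had r from -0.23 to 0.08 over sites. With so few pairs, and deviations taken from the group means, r cannot show whether the number marks a pairing. Under the block the usage log2 change was 0.63 for Slbp, -0.78 for Gtf2ird1 and 0.97 for Rtfdc1. None of the 10 usage and 3 total changes of single named genes turned direction in the alternatives run. These changes were chosen for their small P, and the alternatives reuse the same libraries, so the kept direction is a description only. In usage, Cbln1 passed P under 0.01 in all 15 alternatives, whereas Slbp, Prorsd1 and Patz1 passed it in 0 of 15. Depth limits single shares, since the median member had from 40 (A4) to 150 (C2) reads in a library.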
